A study of Mus musculus with 6 samples.

Results

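The genes described here take glucose into the cell, split it to pyruvate, exchange pyruvate with lactate and pass pyruvate into the mitochondrion for oxidation. The 34 genes were chosen by symbol, though with earlier results of these data known. All 34 were found among the 56448 rows of the expression table. Aldoa had a second, shorter row at 1.45 to 2.18 TPM that was left out. Of the 34 genes, 31 had a mean of at least 1 TPM over the 6 libraries and were tested. The glucose transporter gene Slc2a3, the lactate transporter gene Slc16a3 and the kinase gene Pdk2 were below that level. TPM values are levels per transcript length, so levels of different genes can be set side by side.

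Messenger RNA was sequenced from cultures of 4T1, a cell line from a mouse mammary carcinoma, grown in medium with serum and antibiotics. The series describes a stable lentiviral knockdown of the microRNA miR-9 and a control, with 3 repeats each. Of the 6 libraries, 3 carry the genotype label in9 and 3 the label LV2. Neither name is spelled out and no label says which is the control, so each difference is given as in9 minus LV2. Both groups share the cell line and the medium, and the labels do not say whether either group came from 1 clone. Mature miR-9 is not read by messenger RNA sequencing, so the labels could not be checked against it. The design text mentions a microarray and the extraction protocol mentions tissue, whereas the values and the other labels describe sequenced cultured cells.

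Sequencing depth is unknown, since TPM does not carry it. In each library 13154 to 13466 genes reached 1 TPM. The first principal component held 28.1% of the variance. One library, in9 replicate 1, had a value of -2.70 on it, apart from 26.1 and 27.8 in in9 replicates 2 and 3. The LV2 libraries had -6.98 in replicate 1, -22.0 in replicate 2 and -22.2 in replicate 3. Correlations between libraries were 0.969 to 0.974 within the groups and 0.965 to 0.973 between them, so these ranges overlapped. In9 replicate 1 correlated at 0.9685 with in9 replicate 2 and 0.9697 with in9 replicate 3. With LV2 replicates 1, 2 and 3 it correlated at 0.9711, 0.9694 and 0.9731. Calls are given with and without in9 replicate 1. No source says whether the libraries are from separate cultures, and p-values therefore cover only the spread between these samples, possibly technical. All 10 epithelial markers reached a mean of 1 TPM, summing to 2356 to 2414 TPM in the in9 libraries and 2467 to 2520.1 TPM in the LV2 libraries. Of 9 fibroblast markers only Pdgfra reached that level, with sums of 8.03 to 8.48 TPM in in9 and 4.90 to 6.80 TPM in LV2, and Lum was at 0. Of 10 macrophage markers Cd68 and Cd14 did, with sums of 50.6 to 57.2 TPM in in9 and 45.7 to 50.3 TPM in LV2, and Adgre1, Tyrobp and C1qa were at 0. Of 8 lymphocyte markers none reached 1 TPM, and the sums were at most 0.42 TPM in in9 and 0.70 TPM in LV2. Of 6 endothelial markers Cdh5 did, with sums of 2.26 to 2.86 TPM in in9 and 2.14 to 2.29 TPM in LV2, and Emcn was at 0. Of 7 adipocyte and muscle markers none did, with sums of 0.14 to 0.34 TPM in in9 and 0.22 to 0.47 TPM in LV2, and Lep was at 0. The part of other cells in the results was not tested.

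Glycolysis converts glucose to pyruvate in the cytosol, and its early steps spend ATP while its later steps return it. Pyruvate is then reduced to lactate, which leaves the cell through monocarboxylate transporters, or enters the mitochondrion through the pyruvate carrier and is oxidised by pyruvate dehydrogenase. Pyruvate dehydrogenase kinases switch that enzyme off and phosphatases switch it on again. Many carcinoma lines release lactate even with oxygen present, and several of these genes are known targets of the hypoxia-inducible factor. MiR-9 is a small RNA that can lower messenger RNAs to which its seed pairs.

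The comparison asks how the transcripts of this route differ between the in9 and the LV2 cells. Most of the genes were slightly higher in in9, both subunit genes of the mitochondrial pyruvate carrier averaged lower, and the largest fold changes on log2(TPM + 1) were those of Eno2, Aldoc and Pdk1. None of the 31 tested genes was called at an adjusted p under 0.05 in limma over all 13406 tested genes, where 1.01% of genes were called. The lowest adjusted p was 0.0578, for the aldolase gene Aldoc. At an unadjusted p under 0.05, 16 genes were higher and 2 were lower, Eno3 and Mpc2. Over all tested genes 13.6% were higher and 5.86% lower by that measure. All 3 in9 libraries lay above all 3 LV2 libraries for 17 of the 31 genes, against 17.4% of all tested genes. All 3 lay below for 3 genes, Eno3, Pdhb and Mpc2, against 8.08% of all tested genes. The log2 fold change was positive for 26 of the 31 genes, and for 21 after trimmed-mean scaling between libraries, where Bpgm, Eno1, Ldha, Pdp1 and Dlat turned negative. Of the 13406 tested genes 8543 had a positive value as deposited and 6459 after that scaling. Its median was 0.14, against 0.06 over all tested genes, and it was 0.07 against -0.01 after that scaling. All fold changes were taken on log2(TPM + 1), so those of genes at a few TPM are understated, most of all near or below 1 TPM. With a pseudocount of 0.1 in place of 1, the log2 fold change of Aldoc went from 0.67 to 0.78 and that of Ldhb from 0.37 to 0.51.

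The genes are mostly abundant, so their fold changes were also set beside those of genes at a like level. For the 14 genes with a mean of at least 100 TPM the median log2 fold change was 0.14, against -0.02 over all 1600 tested genes at that level. For the other 17 genes it was 0.16, against 0.07 over 11806 genes. The 34 genes together held 1.54%, 1.58% and 1.59% of all TPM in the in9 libraries, against 1.42%, 1.45% and 1.46% in the LV2 libraries. As deposited the groups did not overlap in this share, and the ratio of the group means was 1.09. The share was not scaled between libraries. Trimmed-mean scaling divides levels by factors of 0.985 to 1.05 in in9 and 0.950 to 1.00 in LV2, so it would bring the groups closer. Transcripts of the mitochondrial chromosome also held more in in9, with 6.42%, 7.64% and 7.49% of all TPM in in9 and 5.90%, 5.97% and 6.01% in LV2. Ribosomal protein genes held 12.4%, 10.4% and 10.6% in in9 and 12.7%, 13.2% and 13.4% in LV2. With mitochondrial transcripts left out the median of the 31 genes was 0.16. In bulk RNA, a change in the number of cells of a kind and a change of RNA per cell cannot be told apart.

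**Figure D1:**
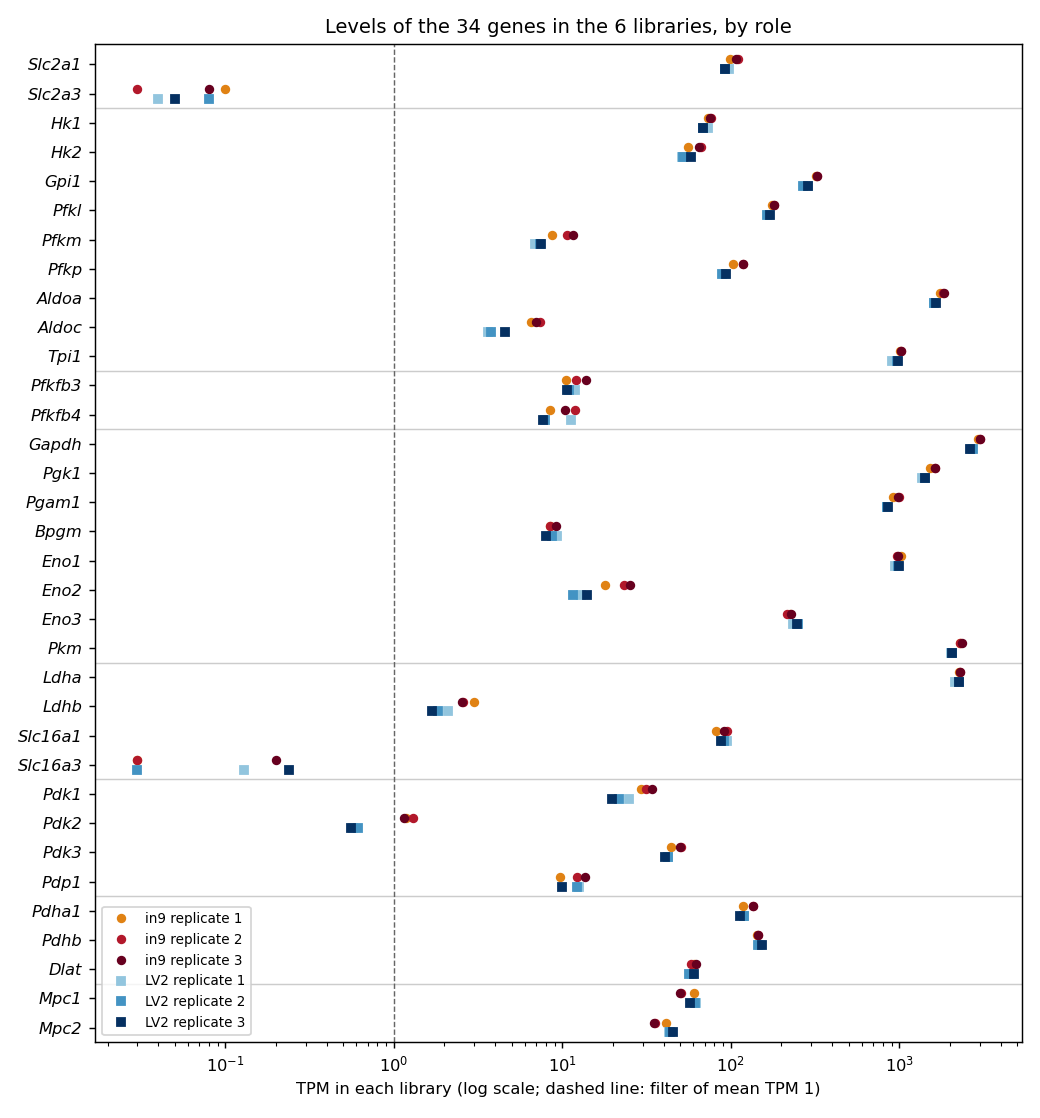
Level of each of the 34 genes in TPM on a log axis, grouped by role from glucose transport at the top to the pyruvate carrier at the bottom, with circles for the 3 in9 libraries and squares for the 3 LV2 libraries. The genes span from under 1 TPM (Slc2a3, Slc16a3) to about 3027 TPM (Gapdh in in9 replicate 2), and the groups lie close together for most genes.

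The agreement among in9 libraries was uneven. In9 replicate 1 was the lowest of the 3 in9 libraries in 24 of the 31 genes, against 52.0% of all tested genes. Relative to the LV2 mean, the median of the 31 genes was 0.06 on the log2 scale in in9 replicate 1, 0.17 in replicate 2 and 0.20 in replicate 3. Over all tested genes these medians were 0.0046, 0.08 and 0.09. Without in9 replicate 1, 14 of the 31 genes were called higher, against 6.77% of all tested genes, and Mpc1 and Mpc2 were called lower, against 3.68%. The 14 were Slc2a1, Gpi1, Pfkm, Pfkp, Aldoa, Aldoc, Gapdh, Pgk1, Pgam1, Eno2, Pkm, Pdk1, Pdk3 and Pdha1. The shares called over all tested genes take in genes of all levels, and none was taken over genes at a like level. No gene of the 31 was called when a different library was left out. In9 replicate 1 was the in9 library nearest to LV2 on the first principal component. Leaving it out can by itself widen the differences and raise the number of calls, and only in9 replicates 2 and 3 remain. With trimmed-mean scaling and without in9 replicate 1, a setting added after the data were seen, the calls were Pfkm, Pfkp, Eno2 and Pdk1 as higher and Mpc1 and Mpc2 as lower, against 2.83% and 6.64% of all tested genes. No label sets that library apart.

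**Figure D2:**
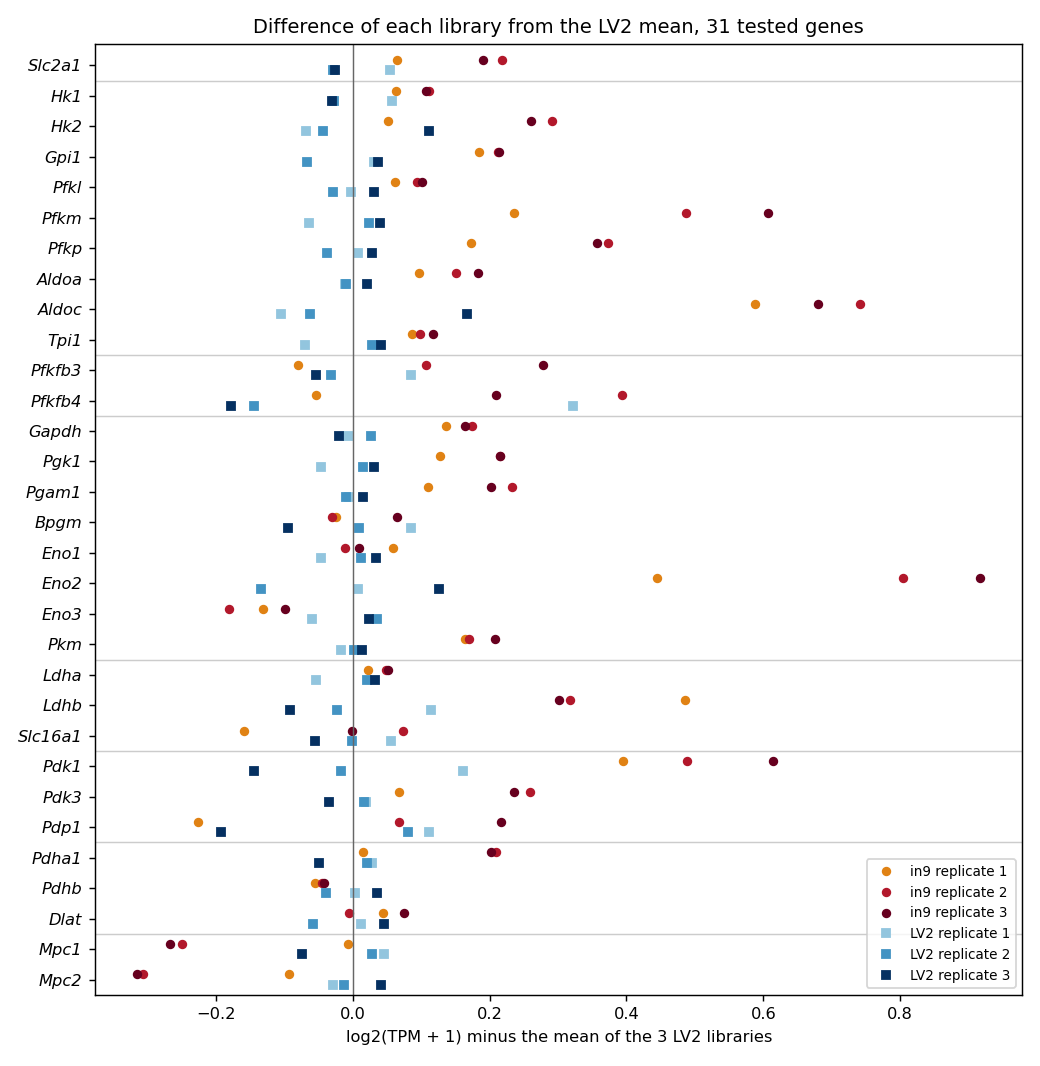
Difference of each library from the mean of the 3 LV2 libraries on the log2(TPM + 1) scale for the 31 tested genes, with circles for in9 and squares for LV2. In9 replicate 1, the lightest circle, is the leftmost in9 circle in 24 of the 31 genes, and Eno2, Aldoc, Pfkm and Pdk1 lie furthest to the right.

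Because the series concerns miR-9, the 3′ UTRs of the genes were searched for letters that pair with its seed. The sequence of miR-9-5p, made from chr3:88215613-88215635, chr7:79505279-79505301 and chr13:83738821-83738843 (RefSeq, GRCm38.p6, plus strand), is shown with its seed, bases 2 to 8, in capitals.
miR-9-5p: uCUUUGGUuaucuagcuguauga
The seed pairs with ACCAAAG, and CCAAAGA and ACCAAAGA were also searched, on the strand of the transcript in each gene's longest 3′ UTR (GENCODE M21, GRCm38). Of the 31 tested genes 6 held a match, or 19.4%, against 2744 of 10994 tested genes with an annotated 3′ UTR, or 24.96%. All 8 matches were ACCAAAG, which is in capitals in the lines for Slc2a1 (chr4:119136320-119136346, plus strand), Hk2 (chr6:82726778-82726804 and chr6:82726221-82726247, minus strand), Pfkp (chr13:6581096-6581122, minus strand), Aldoc (chr11:78326782-78326808, plus strand), Pfkfb4 (chr9:109031071-109031097 and chr9:109031883-109031909, plus strand) and Pdk1 (chr2:71901141-71901167, plus strand).
Slc2a1: agtccctgagACCAAAGgccgaacctt
Hk2: aggaacccaaACCAAAGctagactcga
Hk2: ggcaaagaaaACCAAAGgatttgtttc
Pfkp: tttccatgccACCAAAGgtttccttcc
Aldoc: tgttgcacatACCAAAGtctacctcca
Pfkfb4: tggtgcacacACCAAAGtgcttatgga
Pfkfb4: ggcaaagaccACCAAAGcctttttcct
Pdk1: aggtcaggtgACCAAAGgctcagccac
The log2 fold changes of these 6 genes were all positive, from 0.16 to 0.67 with a median of 0.25, and the median of the other 25 tested genes was 0.10. Over all tested genes with an annotated 3′ UTR the medians were 0.08 with a match and 0.05 without. Eno2, Pfkm and Ldhb, which had larger fold changes than most, held no match. A match is a description of letters and does not show that the site is used.

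Promoters were searched for ACGTG, core letters that the hypoxia-inducible factor is known to bind, on both strands, and for CACGTG, the E-box, which holds ACGTG on each strand and is then counted once on each. The windows ran from 250 bases before to 50 bases after each annotated start (RefSeq, GRCm38.p6), and 32 of the 34 genes had at least 1. A gene was counted when any of its windows held a match. GCGTG, a variant of the core letters, was not counted, so a gene without ACGTG may still hold that variant. Of 30 tested genes with a promoter 15 held ACGTG, or 50%, against 30.1% of all tested genes. Counted by window, 18 of their 44 windows held it, or 40.9%, against 3058 of the 11775 windows of all tested genes and 19.6% of all 32851 promoters. CACGTG was in 4 of the 30 genes, or 13.3%, against 12.1% of all tested genes. By window it was in 9.09%, against 10.1% of the windows of all tested genes and 7.15% of all promoters. The median log2 fold change was 0.16 for the 15 genes with ACGTG and 0.10 for the 15 without, and 0.06 over all tested genes either with or without it. The promoters of the gene with the largest fold change on log2(TPM + 1) (Eno2, chr6:124769624-124769923, minus strand), the gene with the lowest adjusted p (Aldoc, chr11:78322823-78323122, plus strand) and the gene with the most matches (Ldha, chr7:46845554-46845853, plus strand) are shown, with matched letters in capitals. Where a gene had several windows, the 1 with the most matches is shown.
Eno2: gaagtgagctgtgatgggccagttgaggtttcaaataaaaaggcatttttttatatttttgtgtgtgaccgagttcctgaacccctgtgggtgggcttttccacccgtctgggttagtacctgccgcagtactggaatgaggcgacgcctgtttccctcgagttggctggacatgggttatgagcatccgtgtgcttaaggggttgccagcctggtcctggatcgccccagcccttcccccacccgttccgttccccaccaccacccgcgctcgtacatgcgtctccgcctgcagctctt
Aldoc: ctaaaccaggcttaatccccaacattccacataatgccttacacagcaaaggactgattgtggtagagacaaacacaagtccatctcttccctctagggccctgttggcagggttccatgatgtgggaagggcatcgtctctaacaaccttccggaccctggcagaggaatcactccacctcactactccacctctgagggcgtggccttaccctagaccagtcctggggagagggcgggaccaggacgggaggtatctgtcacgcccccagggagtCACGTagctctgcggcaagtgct
Ldha: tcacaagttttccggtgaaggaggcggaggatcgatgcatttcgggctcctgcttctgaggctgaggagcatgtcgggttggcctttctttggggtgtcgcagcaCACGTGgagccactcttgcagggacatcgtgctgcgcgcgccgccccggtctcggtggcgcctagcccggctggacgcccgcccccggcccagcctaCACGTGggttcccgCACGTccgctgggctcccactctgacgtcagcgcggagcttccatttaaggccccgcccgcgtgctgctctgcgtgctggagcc
The Eno2 window held no match, the Aldoc window held 1 match, and the Ldha window held 5 matches, 4 of them in 2 E-boxes. Ldha, with the most matches, had a log2 fold change of 0.04, and Eno2, with none, had 0.72. Whether the factor acts on these promoters was not tested.

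Glucose enters 4T1 cells through the products of the Slc2a genes, of which Slc2a1, the gene of the transporter GLUT1, was the abundant one here. Slc2a1 (ENSMUSG00000028645, chr4:119108711-119137983 in mm10, plus strand) was at 98.7, 109.9 and 108 TPM in the in9 libraries, against 98.1, 92.5 and 92.7 TPM in the LV2 libraries. All in9 libraries were above all LV2 libraries, and in9 replicate 1 was within 1 TPM of the highest LV2 library. Its log2 fold change of 0.16 ± 0.06 (SE) had an adjusted p of 0.203 in limma, and the fold change was 0.08 after trimmed-mean scaling. Slc2a3, the gene of GLUT3, was at 0.03 to 0.10 TPM in in9 and 0.04 to 0.08 TPM in LV2, below the level tested.

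The hexokinase genes Hk1 and Hk2, whose products trap glucose as its phosphate, were at like levels. Hk1 was at 73.4, 75.9 and 75.7 TPM in the in9 libraries, against 73.1, 68.8 and 68.7 TPM in the LV2 libraries. The in9 libraries were above the LV2 libraries by a small margin, with a log2 fold change of 0.09 ± 0.05 (SE) and a limma adjusted p of 0.323. After trimmed-mean scaling the log2 fold change of Hk1 was 0.02. Hk2 was at 56.0, 66.3 and 64.9 TPM in the in9 libraries, against 51.5, 52.4 and 58.4 TPM in the LV2 libraries, and the groups overlapped. Hk2 made up 43.3, 46.6 and 46.2% of the hexokinase TPM of both genes in the in9 libraries, against 41.3, 43.2 and 46.0% in the LV2 libraries, so the mix of the hexokinases also overlapped. Gpi1, the isomerase that turns glucose phosphate into fructose phosphate, was at 321, 327 and 327 TPM in the in9 libraries, against 288, 269 and 289 TPM in the LV2 libraries. Every in9 library exceeded every LV2 library for Gpi1, and in9 replicate 1 lay close to the other in9 libraries. Gpi1 had a log2 fold change of 0.20 ± 0.04 (SE), and its adjusted p in limma was 0.0803, or 0.0388 without in9 replicate 1.

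Phosphofructokinase commits sugar to glycolysis and is assembled from liver-type, platelet-type and muscle-type subunits, encoded by Pfkl, Pfkp and Pfkm. The most abundant subunit gene, Pfkl, differed least between the groups and the least abundant, Pfkm, had the largest fold change. Pfkl was at 176, 179.8 and 181 TPM in the in9 libraries, against 168, 165 and 172 TPM in the LV2 libraries. Pfkp (chr13:6579768-6648777, minus strand) was at 103, 119 and 117 TPM in the in9 libraries, against 92.03, 89.2 and 93.4 TPM in the LV2 libraries. Pfkm was at 8.75, 10.6 and 11.6 TPM in the in9 libraries, against 6.92, 7.42 and 7.51 TPM in the LV2 libraries. For each of the 3 genes all in9 libraries were above all LV2 libraries, and in9 replicate 1 was the lowest of its group. The log2 fold changes were 0.09 ± 0.04 (SE) for Pfkl, 0.30 ± 0.06 (SE) for Pfkp and 0.44 ± 0.11 (SE) for Pfkm, with adjusted p-values in limma of 0.279 for Pfkl, 0.0838 for Pfkp and 0.121 for Pfkm. After trimmed-mean scaling the log2 fold changes were 0.01 for Pfkl, 0.23 for Pfkp and 0.38 for Pfkm. Pfkl made up 61.1, 58.1 and 58.3% of the phosphofructokinase TPM in the in9 libraries, against 62.9, 63.1 and 63.0% in the LV2 libraries. Pfkp made up 35.9, 38.4 and 37.9% of the same sum in the in9 libraries, against 34.5, 34.1 and 34.2% in the LV2 libraries. Shares of 1 library are unaffected by scaling between libraries, and neither share overlapped between the groups. A stretch of 748 bases of Pfkp overlaps Pitrm1 on the other strand, at a mean of 64.4 TPM, and whether strand was used in quantification is not given in the sources used here.

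The level of fructose bisphosphate that activates phosphofructokinase is set by bifunctional enzymes, among them those of Pfkfb3 and Pfkfb4. Pfkfb3 was at 10.5, 12.1 and 13.8 TPM in the in9 libraries, against 11.9, 10.9 and 10.7 TPM in the LV2 libraries. Pfkfb4 was at 8.43, 11.9 and 10.3 TPM in the in9 libraries, against 11.2, 7.86 and 7.65 TPM in the LV2 libraries. Both genes overlapped between the groups, and in9 replicate 1 was the lowest in9 library in both. Their adjusted p-values in limma were 0.634 for Pfkfb3 and 0.594 for Pfkfb4.

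Aldolase and triose phosphate isomerase complete the splitting of the sugar. Aldoa, the main aldolase gene, was at 1740.1, 1806 and 1847 TPM in the in9 libraries, against 1614, 1616 and 1652 TPM in the LV2 libraries. Aldoc (ENSMUSG00000017390, chr11:78322968-78327781, plus strand), the aldolase gene best known from brain, was at 6.50, 7.34 and 6.99 TPM in the in9 libraries, against 3.64, 3.78 and 4.60 TPM in the LV2 libraries. The lowest in9 library, replicate 1, was above the highest LV2 library. The log2 fold change of Aldoc was 0.67 ± 0.12 (SE), and 0.61 after trimmed-mean scaling. Its adjusted p of 0.0578 in limma was the lowest of the 31 genes. Aldoa had a log2 fold change of 0.14 ± 0.04 (SE) and a limma adjusted p of 0.125. Aldoc made up 0.372, 0.405 and 0.377% of the aldolase TPM of both genes in the in9 libraries, against 0.225, 0.233 and 0.278% in the LV2 libraries. Tpi1, the isomerase gene, was at 1009, 1018 and 1031 TPM in the in9 libraries, against 906, 969 and 977 TPM in the LV2 libraries. Its groups did not overlap, with a log2 fold change of 0.10 ± 0.04 (SE) and a limma adjusted p of 0.254. After trimmed-mean scaling the log2 fold change of Tpi1 was 0.03.

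The later steps, where ATP is made, held the most abundant genes of the route. Gapdh, which oxidises the triose phosphate, was at 2949, 3027 and 3007 TPM in the in9 libraries, against 2671, 2734 and 2646 TPM in the LV2 libraries. Pgk1, the first kinase step that returns ATP, was at 1528, 1624 and 1624 TPM in the in9 libraries, against 1355, 1413 and 1429 TPM in the LV2 libraries. Pgam1, the phosphoglycerate mutase gene, was at 919.9, 1002 and 980.1 TPM in the in9 libraries, against 849, 847 and 861 TPM in the LV2 libraries. In each of these 3 genes all in9 libraries were above all LV2 libraries. The log2 fold changes were 0.16 ± 0.03 (SE) for Gapdh, 0.19 ± 0.04 (SE) for Pgk1 and 0.18 ± 0.04 (SE) for Pgam1, with adjusted p-values in limma of 0.0922 for Gapdh, 0.0974 for Pgk1 and 0.103 for Pgam1. After trimmed-mean scaling the log2 fold changes were 0.08 for Gapdh, 0.11 for Pgk1 and 0.11 for Pgam1. Pgam1 has 2 near copies in the table that summed to 57.9 to 126 TPM in in9 and 76.2 to 93.1 TPM in LV2, and reads could be split between them. With the copies added, Pgam1 was 1.13 times as high in in9 as in LV2 by group means. Gapdh and Pgk1 are often used to scale other genes, and both were higher in in9 here without being called. Bpgm, which makes bisphosphoglycerate, was at 8.51, 8.47 and 9.12 TPM in the in9 libraries, against 9.26, 8.74 and 8.06 TPM in the LV2 libraries, and its groups overlapped.

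The enolase genes differed in direction. Eno2 (ENSMUSG00000004267, chr6:124760053-124769673, minus strand), the enolase gene best known from neurons, was at 17.8, 23.2 and 25.1 TPM in the in9 libraries, against 12.9, 11.6 and 14.1 TPM in the LV2 libraries. All in9 libraries were above all LV2 libraries, and in9 replicate 1 stood between the other in9 libraries and LV2. Its log2 fold change of 0.72 ± 0.14 (SE) was the largest of the 31 genes with the pseudocount of 1, though not with 0.1, where it was 0.76 for Eno2 and 0.78 for Aldoc. It had an adjusted p of 0.0685 in limma and 0.0163 without in9 replicate 1. Eno3, the enolase gene best known from muscle, was at 223, 216 and 228 TPM in the in9 libraries, against 235, 251 and 249 TPM in the LV2 libraries. All in9 libraries were below all LV2 libraries for Eno3, with a log2 fold change of -0.14 ± 0.04 (SE) and a limma adjusted p of 0.177. Eno1, the general enolase gene, was at 1018, 969 and 984 TPM in the in9 libraries, against 947, 986 and 1000.2 TPM in the LV2 libraries, and its groups overlapped. Eno1b, a near-identical copy of Eno1, was at 1813, 1916 and 1956 TPM in the in9 libraries, against 1736, 1766 and 1760.0 TPM in the LV2 libraries. Reads may be split between Eno1 and Eno1b, so each is uncertain by itself. Their sum averaged 2885 ± 54.2 TPM in in9 and 2732 ± 42.6 TPM in LV2 (SD, n = 3 each). Eno2 made up 0.580, 0.741 and 0.786% of the TPM of these 4 enolase genes in the in9 libraries, against 0.440, 0.385 and 0.466% in the LV2 libraries. Eno3 made up 7.27, 6.91 and 7.15% of the same sum in the in9 libraries, against 8.01, 8.32 and 8.22% in the LV2 libraries. Neither share overlapped between the groups.

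Pkm, the pyruvate kinase gene, ends the route and was second only to Gapdh in mean level among the 34 genes in the in9 libraries. Pkm (chr9:59656368-59679375, plus strand) was at 2294, 2305 and 2366 TPM in the in9 libraries, against 2024, 2052 and 2068 TPM in the LV2 libraries. The groups were apart and the in9 libraries, replicate 1 included, lay close together. Pkm had a log2 fold change of 0.18 ± 0.03 (SE) (limma, adjusted p = 0.0677), and 0.11 after trimmed-mean scaling. The table gives 1 value per gene, so the splice forms of Pkm were not told apart. Pkm shares 767 bases with Gm49759 on the same strand, at a mean of 40.1 TPM.

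**Figure D3:**
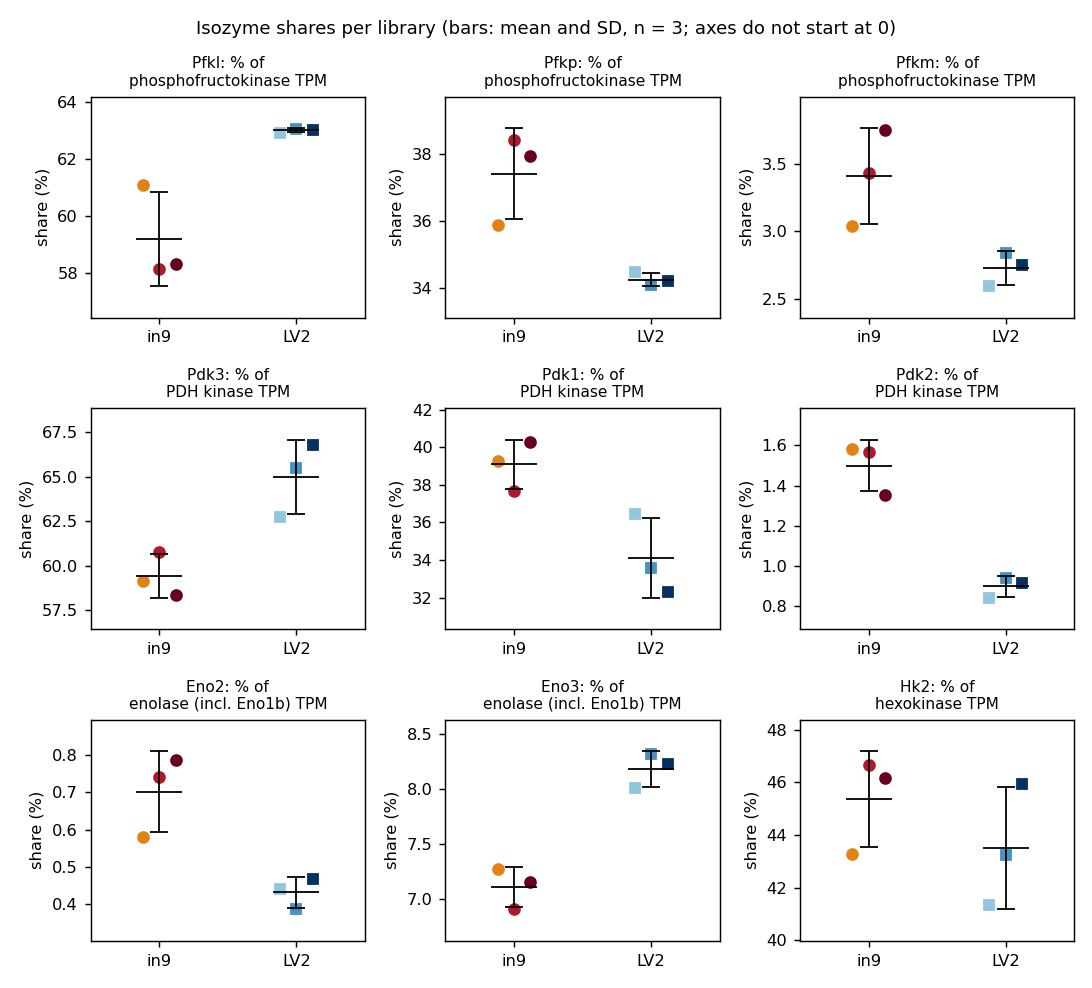
Share of each isozyme in the summed TPM of its family in each library, with the mean and SD of 3 libraries, in9 on the left and LV2 on the right, on axes that do not start at 0. Pfkm, Pfkp, Pdk1, Pdk2 and Eno2 make up more of their families in every in9 library than in every LV2 library, Pfkl, Pdk3 and Eno3 make up less, and Hk2 overlaps.

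The lactate genes differed little. Ldha, the subunit gene of lactate dehydrogenase that dominates in tumour lines, was at 2249.7, 2291 and 2297 TPM in the in9 libraries, against 2134, 2248 and 2266 TPM in the LV2 libraries. The groups overlapped, the log2 fold change of 0.04 ± 0.04 (SE) had an adjusted p of 0.588 in limma, and it became -0.03 after trimmed-mean scaling. Ldhb, the other subunit gene, was at 3.01, 2.57 and 2.53 TPM in the in9 libraries, against 2.10, 1.82 and 1.69 TPM in the LV2 libraries. The in9 libraries were above the LV2 libraries for Ldhb, and here in9 replicate 1 was the highest. Ldhb had a log2 fold change of 0.37 ± 0.14 (SE) (limma, adjusted p = 0.232). The ratio of Ldha to Ldhb was 747, 892 and 908 in the in9 libraries, against 1016, 1235 and 1341 in the LV2 libraries. Slc16a1, the gene of the lactate transporter MCT1, was at 81.3, 95.6 and 90.8 TPM in the in9 libraries, against 94.4, 90.7 and 87.4 TPM in the LV2 libraries, and its groups overlapped. Slc16a3, the gene of the transporter MCT4, was at 0.03 to 0.20 TPM in in9 and 0.03 to 0.24 TPM in LV2.

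Pyruvate dehydrogenase kinases phosphorylate and switch off pyruvate dehydrogenase, and 3 of their genes were detected. Pdk1 (ENSMUSG00000006494, chr2:71873224-71903858, plus strand) was at 29.3, 31.3 and 34.3 TPM in the in9 libraries, against 24.8, 21.8 and 19.8 TPM in the LV2 libraries. Pdk3 was at 44.1, 50.5 and 49.6 TPM in the in9 libraries, against 42.6, 42.5 and 41.0 TPM in the LV2 libraries. Pdk2 was at 1.18, 1.30 and 1.15 TPM in the in9 libraries, against 0.570, 0.610 and 0.560 TPM in the LV2 libraries. In all 3 genes every in9 library was above every LV2 library. The log2 fold change of Pdk1 was 0.50 ± 0.10 (SE), and 0.43 after trimmed-mean scaling. Its limma adjusted p was 0.0722, and 0.0381 without in9 replicate 1. Pdk3 had a log2 fold change of 0.19 ± 0.07 (SE) and a limma adjusted p of 0.195. Pdk2 had a mean of 0.895 TPM over the 6 libraries, below the level tested, and its group means were 1.21 ± 0.0794 TPM in in9 and 0.580 ± 0.0265 TPM in LV2 (SD, n = 3 each). Pdk1 made up 39.3, 37.7 and 40.3% of the TPM of the 3 genes in the in9 libraries, against 36.4, 33.6 and 32.3% in the LV2 libraries. Pdk3 made up 59.1, 60.7 and 58.4% of the same sum in the in9 libraries, against 62.7, 65.5 and 66.8% in the LV2 libraries. The mix of kinase genes therefore differed between the groups without overlap, and Pdk3 was the most abundant in each library. Pdp1, a phosphatase gene that acts against the kinases, was at 9.73, 12.2 and 13.6 TPM in the in9 libraries, against 12.6, 12.3 and 9.98 TPM in the LV2 libraries, and its groups overlapped.

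The core subunit genes of pyruvate dehydrogenase were close between the groups. Pdha1, the gene of the subunit that the kinases phosphorylate, was at 119, 136 and 135 TPM in the in9 libraries, against 119.6, 119 and 113 TPM in the LV2 libraries. Pdhb, its partner in the first enzyme, was at 143.7, 144.8 and 145.1 TPM in the in9 libraries, against 149.7, 145.3 and 153.2 TPM in the LV2 libraries. Dlat, the acetyltransferase gene, was at 60.5, 58.4 and 61.8 TPM in the in9 libraries, against 59.1, 56.3 and 60.5 TPM in the LV2 libraries. Pdha1 and Dlat overlapped between the groups, whereas all in9 libraries were below all LV2 libraries for Pdhb, by under 1 TPM at the nearest. In9 replicates 2 and 3 were above the LV2 libraries for Pdha1, and without in9 replicate 1 its limma adjusted p was 0.0369. With all libraries the adjusted p-values in limma were 0.286 for Pdha1, 0.534 for Pdhb and 0.706 for Dlat. The ratio of Pdk1 to Pdha1 levels was 0.247, 0.231 and 0.254 in the in9 libraries, against 0.207, 0.183 and 0.175 in the LV2 libraries. This ratio did not overlap between the groups, and in9 replicate 1 lay with the other in9 libraries.

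Pyruvate enters the mitochondrion through a carrier built from the products of Mpc1 and Mpc2, and both genes averaged lower in in9 without being called with all 6 libraries. Mpc2 (chr1:165460637-165481214, plus strand) was at 41.2, 35.5 and 35.2 TPM in the in9 libraries, against 43.2, 43.7 and 45.3 TPM in the LV2 libraries. Mpc1 (chr17:8282904-8297661, plus strand) was at 60.2, 50.8 and 50.2 TPM in the in9 libraries, against 62.5, 61.7 and 57.5 TPM in the LV2 libraries. All in9 libraries were below all LV2 libraries for Mpc2, while in9 replicate 1 lay among the LV2 libraries for Mpc1. The log2 fold changes were -0.24 ± 0.07 (SE) for Mpc2 and -0.17 ± 0.08 (SE) for Mpc1, with adjusted p-values in limma of 0.160 for Mpc2 and 0.304 for Mpc1. Without in9 replicate 1 the adjusted p-values in limma were 0.0252 for Mpc2 and 0.0433 for Mpc1. After trimmed-mean scaling the log2 fold changes were -0.31 for Mpc2 and -0.25 for Mpc1, further below 0 than without it. The ratio of Mpc1 to Mpc2 was 1.42 to 1.46 in in9 and 1.27 to 1.45 in LV2, and overlapped.

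**Figure D4:**
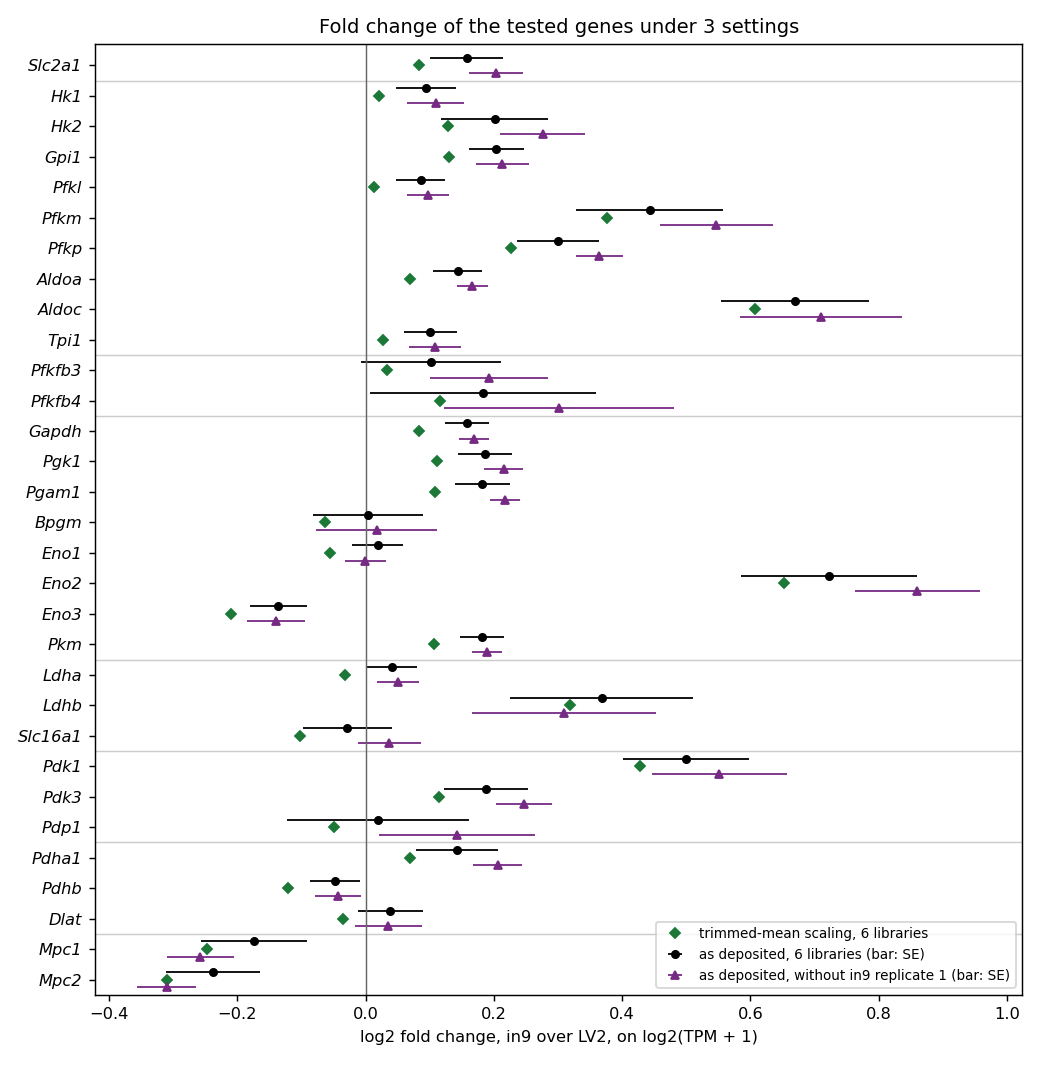
Log2 fold change, in9 over LV2, of the 31 tested genes as deposited with 6 libraries (black, bar: SE), after trimmed-mean scaling (green) and without in9 replicate 1 (purple, bar: SE). Scaling moves each gene to the left, and Eno2, Aldoc, Pdk1 and Pfkm stay furthest to the right at 0.38 or more. Mpc1, Mpc2, Eno3 and Pdhb stay left of 0.

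Summed by step, the in9 level over the LV2 level by group means was 1.12 for glucose transport, 1.10 for hexokinase to triose phosphate, 1.11 for triose phosphate to pyruvate and 1.03 for the lactate genes. It was 1.11 for Pfkfb3 and Pfkfb4, 1.21 for the kinases and phosphatase of pyruvate dehydrogenase, 1.03 for its core subunits and 0.870 for the pyruvate carrier. The sums of the carrier were 101.45, 86.2 and 85.4 TPM in the in9 libraries, against 106, 105 and 103 TPM in the LV2 libraries. The carrier was the step with a sum lower in every in9 library than in every LV2 library. All these sums were taken as deposited, without scaling between libraries.

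Other genes of these families and their partners were taken from a list of 37 genes, of which 16 were tested. Of these 1 was called higher, where 0.821% of all tested genes were, and none lower. Their median log2 fold change was 0.10, against 0.06 over all tested genes. The called gene was Bsg, which encodes basigin, the chaperone that brings the lactate transporters MCT1 and MCT4 to the cell surface. Bsg was at 724, 689.6 and 702 TPM in the in9 libraries, against 588, 596 and 603 TPM in the LV2 libraries. The groups were apart, with in9 replicate 1 the highest, and Bsg rose, with a log2 fold change of 0.24 ± 0.04 (SE) and a limma adjusted p of 0.0453. It was not called after trimmed-mean scaling, where its log2 fold change was 0.17, on leaving out any library except in9 replicate 1, or with no filter, no intensity trend or a replicate block. Ldhd, a mitochondrial lactate dehydrogenase gene, was at 2.87, 2.78 and 3.68 TPM in the in9 libraries, against 1.54, 1.46 and 1.71 TPM in the LV2 libraries, and its limma adjusted p was 0.0961. The isozyme genes Pdk4, Pklr and Slc16a7 were listed at 0 in all 6 libraries. Of 10 tested regulators of glycolysis none was called, and 2, Trp53 and Hif1a, passed an unadjusted p under 0.05 as higher, where 13.6% of all tested genes did. The list's median was 0.12, against 0.06 over all tested genes. Trp53, which encodes the tumour suppressor p53, was at 32.2, 31.7 and 31.6 TPM in the in9 libraries, against 29.8, 28.7 and 27.9 TPM in the LV2 libraries, with the groups apart and a limma adjusted p of 0.214. Hif1a, which encodes the oxygen-regulated subunit of the hypoxia-inducible factor, was at 86.5, 112 and 111 TPM in the in9 libraries, against 87.8, 85.3 and 83.4 TPM in the LV2 libraries. Its in9 replicate 1 lay within the LV2 libraries and its in9 replicates 2 and 3 above them, with an adjusted p of 0.239 in limma. Of 21 tested hypoxia targets outside glycolysis 5 rose, Bnip3, Ankrd37, Mxi1, Ddit4 and Ndrg1, where 0.821% of all tested genes did. Their list, chosen with earlier results of these data known, had a median of 0.33, against 0.06 over all tested genes. Bnip3 was at 229.7, 281 and 265 TPM in the in9 libraries, against 165, 164 and 161 TPM in the LV2 libraries. Without in9 replicate 1, 12 of these 21 genes were called higher and 1 lower, against 6.77% and 3.68% of all tested genes. After trimmed-mean scaling 1 was called higher, against 0.343% of all tested genes, and 2 were with quantile normalization. None was called when a different library was left out, with no filter, with no intensity trend or with a replicate block.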

How the data were processed

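The authors deposited 1 table of TPM values for the 6 libraries, built on mm10 per the submitters' processing notes. The aligner, the quantifier, the annotation and the use of strand were not given in the sources used here. Values were not recounted, so reads of near copies stay as the authors assigned them. Libraries were grouped by genotype label. Genes with a mean of at least 1 TPM over the 6 libraries (13406) entered limma 3.58.1 (R 4.3.3) as log2(TPM + 1), in9 minus LV2, with the prior variance following mean level and no block for replicate numbers. Two-sided p-values received the Benjamini-Hochberg adjustment over all tested genes, and calls were made under 0.05. The steps were tested on simulated data. TPM keeps no depth, so no counting interval is given. TPM have a fixed sum in each library, so a rise of abundant transcripts lowers all others, and trimmed-mean scaling (trimming 30% of log ratios and 5% of mean levels per side) was tried against this. Sums, shares and ratios are values without a test. Other steps used numpy 2.4.6, pandas 2.3.3 and python 3.11.15.

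The 34 genes, the other gene lists and the alternatives were chosen with earlier results of these data known. Every one of the 34 is named, and of each other list up to 3 genes with the smallest p-values and any gene behind a count of 5 or fewer. A result that this would add is not reported here. Settings tried beside these were leaving out each library, protein-coding genes only, a block for replicate numbers, weights per library, a prior variance without trend, no mitochondrial transcripts, quantile normalization, no filter, a minimum mean of 5 TPM and a pseudocount of 0.1.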

Additional observations from a re-analysis of the deposited data

How the results depend on the processing

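No gene of the 31 was called in limma with all 6 libraries as deposited, and 0 were called with a pseudocount of 0.1, no filter, a minimum mean of 5 TPM, trimmed-mean scaling, no mitochondrial transcripts, no intensity trend or a replicate block. Counts of genes higher of the 31 were 2 with quantile normalization (Gapdh and Pkm), 15 with library weights (2 lower), 6 with protein-coding genes only, 4 with trimmed-mean scaling and without in9 replicate 1 (2 lower), and 0 to 14 (0 to 2 lower) when single libraries were left out. Library weights gave in9 replicate 1 a weight of 0.308, the lowest of the 6. The median of 0.14 became 0.069 with trimmed-mean scaling and ran from 0.11 to 0.19 when single libraries were left out, or 0.11 to 0.15 without a library other than in9 replicate 1.

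Over all genes, 110 were higher and 26 lower. The counts of higher genes were 24 with no filter, 46 with trimmed-mean scaling, 27 with no intensity trend, 1166 with library weights, 305 with protein-coding genes only, 380 with trimmed-mean scaling and without in9 replicate 1, and 4 to 908 when single libraries were left out. Those of lower genes were 6 with no filter, 45 with a minimum mean of 5 TPM, 4 with no intensity trend, 523 with library weights, 85 with protein-coding genes only, 890 with trimmed-mean scaling and without in9 replicate 1, and 1 to 494 when single libraries were left out. Trimmed-mean scaling changed the split of genes with a positive and a negative fold change from 8543 and 4863 to 6459 and 6947. The cause was not tested.

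The replicate numbers gave no sign of pairing, which does not show that the samples were unpaired. Same-numbered libraries had correlations of -0.10 to 0.02 in their deviations from the group means. By this measure 0 of 3 in9 libraries correlated best with its own number. With a replicate block 1 gene was higher and 1 lower, and the lowest adjusted p of the 31 genes was 0.234 in limma.

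Small fold changes that were never called crossed 0. With trimmed-mean scaling they were -0.063 for Bpgm, -0.055 for Eno1, -0.033 for Ldha, -0.049 for Pdp1 and -0.035 for Dlat. With quantile normalization they were -0.11 for Bpgm, -0.077 for Pdp1 and -0.0066 for Dlat, and with library weights -0.0021 for Eno1 and 0.026 for Slc16a1. With trimmed-mean scaling and without in9 replicate 1 they were -0.0011 for Hk1, -0.014 for Pfkl, -0.0038 for Tpi1, -0.083 for Bpgm, -0.11 for Eno1, -0.062 for Ldha and -0.075 for Dlat. When single libraries were left out, Bpgm ran from -0.044 to 0.046, Eno1 from -0.0040 to 0.036, Slc16a1 from -0.079 to 0.037 and Pdp1 from -0.079 to 0.14. With unknown depth, the counting error of genes at a few TPM such as Ldhb and Pdk2 cannot be given.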

Other observations

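Of 13 tested genes of the glycogen and serine branches, which leave glycolysis, 1 rose, where 0.821% of all tested genes did, and the median log2 fold change of that list was 0.06, as over all tested genes. It was Pgm1, by its symbol a gene of the phosphoglucomutase family, at 75.8, 88.2 and 86.9 TPM in the in9 libraries, against 59.3, 58.7 and 56.4 TPM in the LV2 libraries. The groups were apart, with a log2 fold change of 0.51 ± 0.07 (SE) and a limma adjusted p of 0.0418. Pgm1 was also called after trimmed-mean scaling, but lost its call on leaving out any 1 of the libraries except in9 replicate 1, and with no filter, no intensity trend or a replicate block. Gys1, the glycogen synthase gene, was at 44.4, 53.5 and 52.3 TPM in the in9 libraries, against 38.1, 34.5 and 34.8 TPM in the LV2 libraries, with an adjusted p of 0.0633 in limma. Psat1, of serine synthesis, was at 222, 222 and 221 TPM in the in9 libraries, against 239, 243 and 233 TPM in the LV2 libraries, with all in9 libraries below all LV2 libraries and an adjusted p of 0.187 in limma.

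None of 10 tested genes of the pentose phosphate pathway and none of 22 tested genes of the citric acid cycle was called in limma. At an unadjusted p under 0.05, 3 genes of the pentose phosphate list were higher, Taldo1, Pgd and Tkt, and 5 of the citric acid cycle list, the lowest p-values being those of Idh2 and Sdha. Over all tested genes 13.6% were higher and 5.86% lower by that measure. None was lower in either list. Taldo1, the transaldolase gene, was at 159, 144 and 147 TPM in the in9 libraries, against 127, 137 and 134 TPM in the LV2 libraries, and here in9 replicate 1 was the highest. Idh2, a mitochondrial isocitrate dehydrogenase gene, was at 145, 146 and 148 TPM in the in9 libraries, against 133, 134 and 132 TPM in the LV2 libraries. The groups did not overlap for either gene. The medians were 0.06 for the pentose phosphate list and 0.03 for the citric acid cycle list, against 0.06 over all tested genes. Without in9 replicate 1 Idh2 and Sdha had adjusted p-values in limma of 0.0451 for Idh2 and 0.0458 for Sdha.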
